A study of Mus musculus with 24 samples.

Results

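The intercalated disc is the specialised contact where 2 heart muscle cells meet end to end, and 10 genes that build its junctions were followed here. The members were picked with earlier results of these data known, and were found by name as the lines of the deposited count table for Cdh2, Ctnna1, Ctnna3, Ctnnb1, Jup, Dsp, Pkp2, Dsg2, Dsc2 and Gja1, among 23337 genes in all. All 10 passed the filter on low counts that left 12281 genes for testing. The libraries are polyadenylated RNA of cardiomyocytes sorted from hearts of 4-week-old mice.

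The comparison covers 4 groups of mice with 6 libraries each, and each mouse received an adeno-associated virus (AAV) on postnatal day 1. The group Ctrl had the genotype Rosa-Cas9/Cas9, meaning the Cas9 nuclease at the Rosa locus, and received AAV-Cre. The group MKO had that same genotype and received AAV-Myocd-sgRNA, a guide RNA against myocardin (Myocd). The group DKO had the genotype labelled Mrfta-/-; Mrtfb-F/F; Rosa-Cas9/Cas9, that is, no functional Mrtfa and a floxed Mrtfb, and received AAV-Cre. The group TKO shared the DKO genotype and received AAV-Myocd-sgRNA. All 4 groups therefore carried Cas9 and an AAV. No group received a virus without Cre or guide, the labels do not state the promoters of Cre and of the guide, and the share of cells that lost each gene was not measured. Whether each library is a different animal is not stated either, and the p-values therefore reflect the spread among these libraries, which may be technical.

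Fascia adherens junctions tie the actin filaments of neighbouring cells together: the cadherin Cdh2 crosses the gap, and the catenins on its inner side link it to actin. Desmosomes tie the intermediate filaments: the cadherins Dsg2 and Dsc2 cross the gap, plakoglobin and plakophilin-2 sit beneath them, and desmoplakin reaches the filaments. Gap junctions of connexin 43 let current pass from cell to cell, and inherited defects of the desmosomal genes are known from arrhythmogenic cardiomyopathy. Myocardin and the related factors Mrtfa and Mrtfb are coactivators of serum response factor (Srf), which binds a DNA motif called the CArG box.

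Upstream sequence is shown for 2 members that behaved differently below, Dsp, which rose in TKO against all 3 other groups, and Gja1, the most abundant member, which passed no test. Both are the 250 bases before the RefSeq start of the gene in GRCm38.p6, the assembly of mm10, on the plus strand, 5′ to 3′. Capitals mark GC boxes (GGGCGG, on either strand) in Dsp and an AP-1 motif (TGANTCA) in Gja1.
Dsp, chr13:38151044-38151293: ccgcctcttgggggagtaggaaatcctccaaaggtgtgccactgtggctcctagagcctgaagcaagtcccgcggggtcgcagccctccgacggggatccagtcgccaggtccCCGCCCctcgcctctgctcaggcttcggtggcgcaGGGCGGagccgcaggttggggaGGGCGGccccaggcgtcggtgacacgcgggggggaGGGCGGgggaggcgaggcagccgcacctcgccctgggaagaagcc
Gja1, chr10:56377050-56377299: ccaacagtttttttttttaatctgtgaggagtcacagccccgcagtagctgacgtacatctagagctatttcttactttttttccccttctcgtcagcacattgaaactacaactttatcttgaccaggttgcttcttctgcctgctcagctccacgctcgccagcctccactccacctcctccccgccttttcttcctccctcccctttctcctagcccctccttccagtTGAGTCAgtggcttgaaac
The Dsp window is 72.4% G and C and holds 4 GC boxes, and the Gja1 window is 50% G and C with none. The AP-1 motif of Gja1 lies 19 bases before the start. Windows were found for 5 of the 10 members, with 8 starts in all (Dsp, Jup and Gja1 with 1 each, Ctnnb1 with 2 and Ctnna3 with 3). A CArG box was present in 0 of these 8 windows, against 1.47% of 32851 windows of the same length over all genes. At that share 0 of 8 is the usual outcome, so the count sets the members apart in no way. A GC box was in 5 of the 8, against 32.7% of all windows, and an AP-1 motif is in 6.75% of all windows. The 5 windows with a GC box were 62.0% to 74.8% G and C, and the 32.7% is not matched for G and C content. The 2 Ctnnb1 windows overlap and both hold GC boxes, so they are not separate counts. These are matches of letters only, and sites farther from a start were not searched. A link between these sequences and the members' changes was not tested.

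Total counts ranged from 5.83 M (DKO 1) to 17.18 M (TKO 3). Mrtfa, listed under its older symbol, lay at 4.81 to 11.3 CPM (counts per M of effective library size) in Ctrl and at 1.33 to 2.66 CPM in TKO, and Mrtfb at 44.8 to 55.9 and 27.5 to 42.5 CPM. Myocd lay at 153 to 234 CPM in Ctrl (median 181.5) and 119.8 to 187 in MKO (median 140.3). The range for DKO was 175 to 242 CPM (median 206) and that of TKO 175 to 324 (median 230.1), so of the groups with the guide MKO had a lower median than Ctrl and TKO a higher one. A short insertion or deletion at a guide's target need not change these counts, and editing was not measured. One library stood apart: DKO 1 had a median correlation of 0.914 with the other DKO libraries, against 0.966 to 0.985 for every other library with its own group. It was the lowest DKO library for 8 of the 10 members in CPM and the highest for Dsp. DESeq2 fits without DKO 1 and Ctrl 3 gave the authors' deposited log2 fold changes within 0.001 for 100% of genes, so counts of changed members are also given without them. In MKO against Ctrl, DKO against Ctrl and DKO against MKO that count was 0, as with all libraries. Myocyte markers were abundant in every library: 12 of them summed to between 111600 and 178660 CPM. Fibroblast markers (10 genes) summed to at most 1117 CPM, endothelial ones (10) to at most 1202, pericyte and smooth muscle ones (8) to at most 831, and leukocyte ones (10) to at most 25.8.

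Levels were compared between genes only per exon length, in TPM, the share of a gene in its library after division by exon length. In Ctrl, Gja1 (chromosome 10, 56377300 to 56390419), which encodes connexin 43, was highest at a mean of 1263 ± 267 TPM (SD, n = 6). Ctnna1, encoding αE-catenin, followed at 760 ± 109, and Cdh2, encoding N-cadherin, at 279 ± 52.9. Gja1 exceeded Ctnna1, and Ctnna1 exceeded Cdh2, in 6 of 6 Ctrl libraries with no overlap of their ranges. Ctnnb1 (β-catenin) at 207 ± 34.8, Pkp2 (plakophilin-2) at 198 ± 26.8 and Jup (plakoglobin, found in both kinds of adhesive junction) at 198.0 ± 31.2 TPM overlapped one another. Lower still were Dsp (desmoplakin) at 97.6 ± 10.96, Dsc2 (desmocollin-2) at 72.2 ± 10.6, Dsg2 (desmoglein-2) at 56.8 ± 12.5 and Ctnna3 (αT-catenin) at 31.7 ± 3.98 TPM. Dsc2 exceeded Dsg2 in 6 of 6 Ctrl libraries although their ranges overlapped.

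The order was much the same in every group, with Gja1, Ctnna1 and Cdh2 on top and Ctnna3 at the bottom. In TKO the first 2 drew close: Gja1 averaged 1319 ± 299 and Ctnna1 1125 ± 176 TPM, and their ranges overlapped, with Gja1 above in 5 of 6 libraries. Ctnna1 made up 27.4% to 30.3% of the summed TPM of the 10 members in TKO, against 23.2% to 25.6% in Ctrl, 22.4% to 27.9% in MKO and 22.7% to 26.01% in DKO. Gja1 made up 26.4% to 35.9% in TKO and 35.0% to 42.2% in Ctrl. DKO 1 lay lowest in its group for all 10 members in TPM, Dsp and Jup included, although not for these 2 in CPM.

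**Figure D1:**
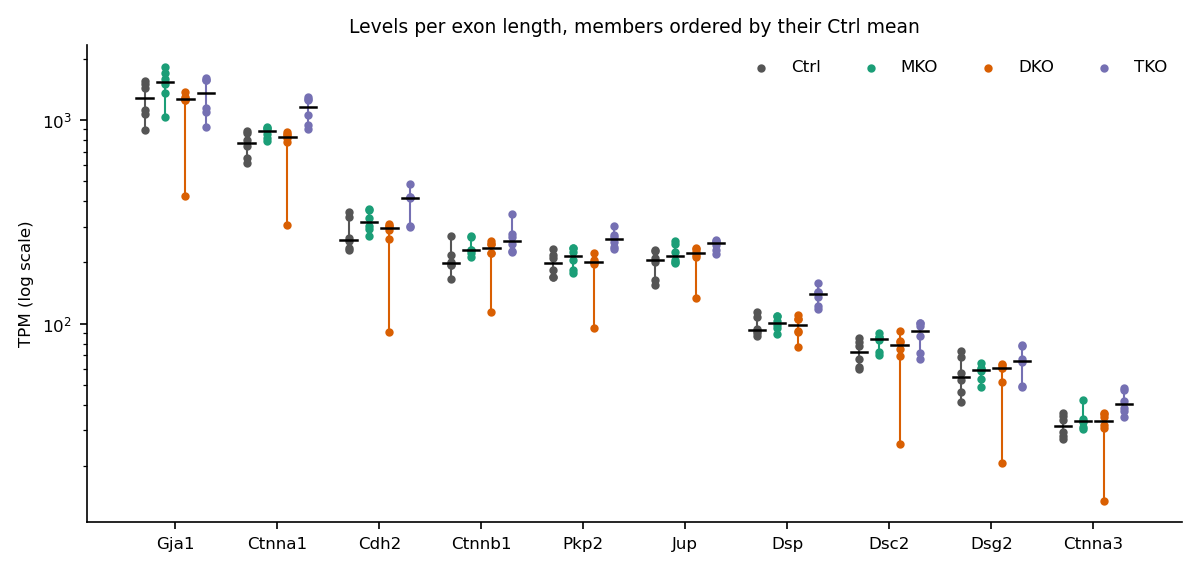
Level of each member per exon length (TPM, log scale) in the 24 libraries, 1 point per library, coloured by group, with a black bar at the group median and a line from the lowest to the highest library. Gja1 and Ctnna1 were highest and Ctnna3 lowest in every group, and the long downward lines of DKO end in the library DKO 1.

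With Myocd targeted alone, or both Mrtf genes alone, no member passed the test against Ctrl. With edgeR's quasi-likelihood test over all 24 libraries, 0 of 10 members were called in MKO against Ctrl at an adjusted p under 0.05. In that comparison 0% of all tested genes were called by edgeR, 762 had an unadjusted p under 0.05, and 0 of those 762 were members. DESeq2 called 1 gene and limma voom 3 in the same comparison, neither a member. Log2 ratios of the members lay between -0.05 (Dsg2) and 0.17 (Gja1), with a median of 0.10. Of these the 95% interval of Gja1, -0.17 to 0.51, was the widest.

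Between DKO and Ctrl 0 of 10 members were called, where 0.635% of all tested genes were. None of the 10 had an unadjusted p under 0.05, against 1285 of all 12281 tested genes. DESeq2 and limma voom also called 0 members. Log2 ratios ran from -0.21 ± 0.17 (SE) for Gja1 to 0.04 ± 0.08 for Jup, with a median of -0.11. Between DKO and MKO 0 members were called by edgeR, DESeq2 or limma voom, while 0.79% of all tested genes were called by edgeR. All 10 ratios were below 0, and 2 members had an unadjusted p under 0.05, as did 1877 of all 12281 tested genes. The 2 were Gja1 with a log2 ratio of -0.39 ± 0.17 (adjusted p = 0.276) and Cdh2 with -0.32 ± 0.15 (adjusted p = 0.311). These misses leave room for changes of the size the intervals allow, for Gja1 from -0.73 to -0.05 on the log2 scale.

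When all 3 coactivators were targeted, transcripts of desmoplakin and αE-catenin rose against the controls. In TKO against Ctrl 2 of 10 members were called, both higher, where 14.1% of all tested genes were called (8.14% higher and 5.98% lower). The members' median log2 ratio was 0.22, against -0.01 over all tested genes, and 9 of 10 ratios were above 0. DESeq2 and limma voom each called 3 members, adding Pkp2 and Ctnna3 respectively, where they called 17.3% and 21.5% of all tested genes. Without DKO 1 and Ctrl 3 the count was 4, with Ctnna3 and Pkp2 added, and without DKO 1 alone it was 5, with Cdh2 added as well. Calls rose among all tested genes too, to 21.3% and 22.7% in those fits. DKO 1 is not part of this comparison, but all 4 groups share 1 fit, with its filter, scaling and estimate of spread. Which of these moved the counts was not tested. A fit of only Ctrl and TKO called the same 2 members and 17.2% of all tested genes. The choice of scaling also bore on the count: scaling to total counts, without the TMM factors, shifted the median log2 ratio of all genes from -0.01 to 0.12 and called 5 members, adding Ctnna3, Jup and Pkp2, and 18.1% of all tested genes. Under that scaling 81.5% of all called genes were higher, against 57.7% with TMM.

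Against DKO, the group of the same genotype that received AAV-Cre, 5 of 10 members rose in TKO: Cdh2, Ctnna1, Ctnna3, Dsp and Pkp2. In this comparison 6.38% of all tested genes were called (4.16% higher and 2.22% lower). All 10 ratios were above 0, with a median of 0.30 against -0.04 over all tested genes. The 5 called members were the 5 whose TKO libraries all lay above every DKO library. Call and overlap rest on the same values, and the share of all tested genes without overlap was not counted. The same 5 were called without DKO 1 and Ctrl 3, where 10% of all tested genes were, and without DKO 1 alone, where 8.9% were. Without DKO 1 alone they had smaller ratios for Cdh2 (0.41), Ctnna1 (0.42), Ctnna3 (0.28) and Pkp2 (0.34) and a larger one for Dsp (0.44). With only the DKO and TKO libraries in the fit 0 members and 2.25% of all tested genes were called. The edgeR adjusted p of the same 5 ran from 0.0540 for Pkp2 to 0.137 for Ctnna3. These 5 had an unadjusted p under 0.05 in that fit, where the share of all genes at that p was not counted. With only those 2 groups and DKO 1 also left out, a setting chosen after seeing the data, all 5 and 8.32% of all tested genes were called (adjusted p from 0.00409 to 0.0423).

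**Figure D2:**
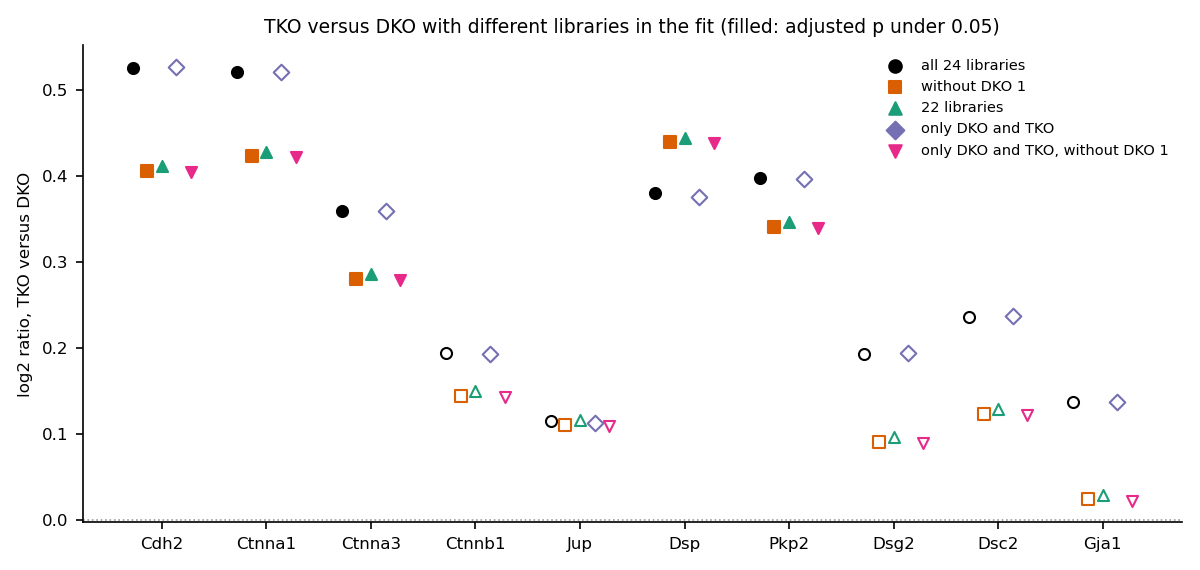
Log2 ratio of each member in TKO against DKO under 5 choices of libraries (symbols), filled where the adjusted p was under 0.05. Ratios of Cdh2, Ctnna1, Ctnna3 and Pkp2 were smaller and that of Dsp larger wherever DKO 1 was left out, and no symbol was filled when only DKO and TKO, with DKO 1, were fitted.

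Against MKO, the group with the same virus and intact Mrtf genes, only Dsp was called higher in TKO, 1 of 10 members where 13.3% of all tested genes were called. The members' median log2 ratio was 0.14 against -0.00079 over all tested genes, and 9 of 10 were above 0. Without DKO 1 and Ctrl 3 the count was 4 (Ctnna1, Ctnna3 and Pkp2 added), and the same 4 were called without DKO 1 alone, while 23.4% and 22% of all tested genes were called in those fits. Limma voom with library weights called 3 members and 26.1% of all genes, DESeq2 2 and 16.9%, and a fit of only MKO and TKO 2 and 21.6%. Of all called genes 48.6% were higher in TKO with TMM and 66.4% with total-count scaling, which called 1 member. Comparisons that share the TKO libraries are not independent of each other.

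**Figure D3:**
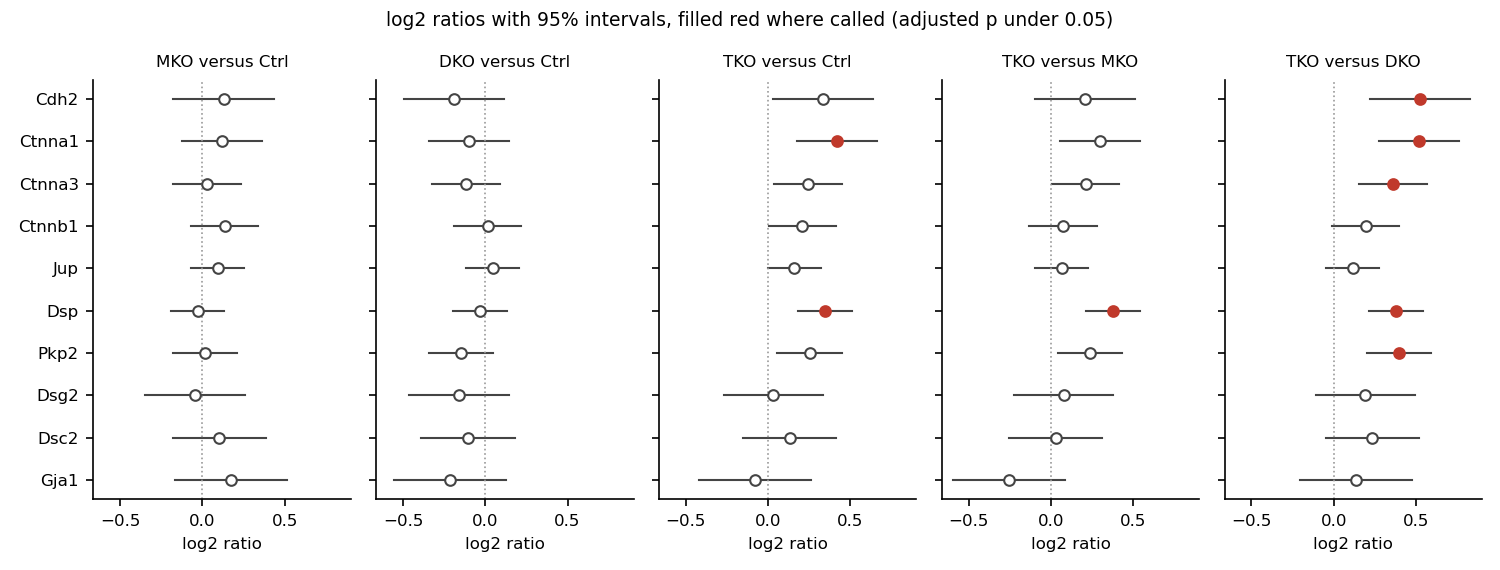
Log2 ratio of each member with its 95% interval in 5 comparisons (panels), filled red where the adjusted p was under 0.05. The Ctnna1 and Dsp points are filled in TKO against Ctrl, Dsp alone in TKO against MKO, 5 members in TKO against DKO and none in MKO or DKO against Ctrl.

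Among the adherens genes, Ctnna1 (chromosome 18, 35118912 to 35254775) encodes αE-catenin, which joins the cadherin complex to actin. Its CPM ran from 1137 through a median of 1289 to 1465 in Ctrl, from 1288 through 1432 to 1523 in MKO, from 765 through 1287 to 1396 in DKO and from 1530.3 through 1746 to 2016 in TKO. Every TKO library was above every library of the other groups, although by little above the highest MKO library. The rise was 1.34-fold against Ctrl (log2 0.42 ± 0.12, adjusted p = 0.0163) and 1.43-fold against DKO (0.52 ± 0.12, adjusted p = 0.00781). Against MKO the log2 ratio was 0.30 ± 0.12, which missed the threshold (adjusted p = 0.0911) although the groups did not overlap. The call against Ctrl held in all 34 settings tried.

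Cdh2 (chromosome 18, 16588877 to 16809049) is the classical cadherin of heart muscle. It spanned 479 to 742 CPM in Ctrl (median 583), 556 to 758 in MKO (678), 288 to 609 for DKO (577) and 616 to 934 in TKO (788). TKO lay above all DKO libraries, while 4 of 6 TKO libraries lay above the highest Ctrl library. The log2 ratio was 0.53 ± 0.15 against DKO (adjusted p = 0.0335) and 0.33 ± 0.15 against Ctrl, which was not called (adjusted p = 0.141). The call against DKO was lost without DKO 2 (adjusted p = 0.0578) and without TKO 1 (0.0593), TKO 4 (0.0925), TKO 5 (0.0551) or TKO 6 (0.0677).

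Ctnna3 (chromosome 10, 63430098 to 65003667), αT-catenin, binds plakophilin-2 as well as the cadherin complex. It was scarce, at 53.2 to 66.1 CPM in Ctrl (median 56.8), 55.5 to 69.2 in MKO (58.0), 36.4 to 59.3 for DKO (56.5) and 61.3 to 77.9 in TKO (67.9). TKO and DKO did not overlap, and TKO overlapped Ctrl in 2 of its 6 libraries. It rose by 0.36 ± 0.10 against DKO (adjusted p = 0.0305), and the ratio against Ctrl was 0.24 ± 0.10 (adjusted p = 0.111). Leaving out DKO 2 (adjusted p = 0.0557), TKO 1 (0.0735), TKO 5 (0.0642) or TKO 6 (0.0549) ended the call against DKO, as did scaling to total counts (0.0697).

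Ctnnb1 (chromosome 9, 120933400 to 120960507) encodes β-catenin, which binds the cadherin tail and is also the nuclear effector of Wnt signalling. Its range was 304 to 428 CPM in Ctrl (median 346), 346 to 430 in MKO (383), 284 to 388 (364) for DKO and 360.3 to 521 (383) for TKO. The groups overlapped, with 1 TKO library, TKO 4, above all Ctrl libraries, and no comparison was called (TKO against Ctrl 0.21 ± 0.10, adjusted p = 0.176). Of 20 Wnt target genes 12 were tested. In TKO against Ctrl 1 was higher (Myc, 1.15 ± 0.26, adjusted p = 0.0032) and 1 lower (Tcf7l2, -0.48 ± 0.08, adjusted p = 0.00026). Of all tested genes 8.14% were higher and 5.98% lower, so these counts are near the shares of all genes. The median log2 ratio of the 12 was -0.13. Myc answers to many other signals, and Tcf7l2 is itself a partner of β-catenin on DNA.

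Among the desmosomal genes, Dsp (chromosome 13, 38151294 to 38198577) anchors intermediate filaments to the plaque. Its CPM ran from 395 through a median of 431 to 496 in Ctrl, from 406 through 427 to 465 in MKO, from 382 through 427 to 506 in DKO and from 518 through 546 to 636 in TKO. All 6 TKO libraries lay above all 18 others, and the other 3 groups overlapped widely. Dsp rose 1.27-fold against Ctrl (log2 0.35 ± 0.08, adjusted p = 0.00397), 1.3-fold against MKO (0.38 ± 0.08, adjusted p = 0.00254) and 1.3-fold against DKO (0.38 ± 0.08, adjusted p = 0.00387). The calls against Ctrl and MKO held in all 34 settings and that against DKO in 34 of 35.

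Pkp2 (chromosome 16, 16213345 to 16272712) is the plakophilin of the heart and links desmosomal cadherins to desmoplakin. It spanned 216 to 305 CPM in Ctrl (median 275), 228 to 302 in MKO (275), 188 to 271 for DKO (249) and 296 to 364 in TKO (313). Each TKO library exceeded each DKO library, and 4 of 6 exceeded all Ctrl libraries. It rose by 0.40 ± 0.09 against DKO (adjusted p = 0.0113), while the ratios against Ctrl (0.25 ± 0.09, adjusted p = 0.077) and MKO (0.24 ± 0.09, adjusted p = 0.0944) were not called. Pkp2 lies 2.8 Mb from Mrtfb, the floxed gene, which TKO and DKO share. Of 162 tested genes within 10 Mb of Mrtfb, 8.02% were called in TKO against DKO, 21% in TKO against Ctrl and 3.09% in DKO against Ctrl, beside 6.38%, 14.1% and 0.635% of all tested genes.

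Jup, Dsg2 and Dsc2 passed no test in any comparison. Jup lay at 398 to 523 CPM in Ctrl (median 463), 446 to 567.7 in MKO (490.1), 439 to 521 for DKO (479) and 501 to 534 in TKO (517), and its TKO libraries were the least spread of any member's (coefficient of variation 2.73%). Its ratio against Ctrl was 0.16 ± 0.08 (adjusted p = 0.188) and was called under total-count scaling alone. Dsg2 lay at 117 to 194 CPM in Ctrl (median 153), 125 to 164 in MKO (149), 81.5 to 157 for DKO (147) and 124 to 187 in TKO (154). Dsc2, its partner across the gap, lay at 116 to 169 CPM in Ctrl (median 155), 138 to 180 in MKO (161), 77.9 to 167 for DKO (148) and 130 to 188 in TKO (166). All 4 groups overlapped for these 3 genes. The TKO against Ctrl ratios were 0.03 for Dsg2 (95% interval -0.27 to 0.33) and 0.13 for Dsc2 (-0.15 to 0.41), intervals that include the size of the Dsp rise for Dsc2 and nearly reach it for Dsg2. The sign of the Dsg2 ratio turned in 7 of 34 settings.

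Gja1, the gap junction channel of working myocardium, was the only member with a ratio below 0 in TKO against Ctrl, and it was not called. It spanned 1420.4 to 2163 CPM in Ctrl (median 1864), 1509 to 2510 in MKO (2155), 898 to 1784 for DKO (1702) and 1178 to 2105 in TKO (1807). The groups overlapped throughout, and the 2 lowest libraries of all were DKO 1 and TKO 1. Log2 ratios of TKO were -0.08 ± 0.16 against Ctrl (adjusted p = 0.806), -0.25 ± 0.16 against MKO (adjusted p = 0.339) and 0.14 ± 0.16 against DKO (adjusted p = 0.635). Its sign against Ctrl turned under total-count scaling (0.04) and without TKO 1 (0.01).

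**Figure D4:**
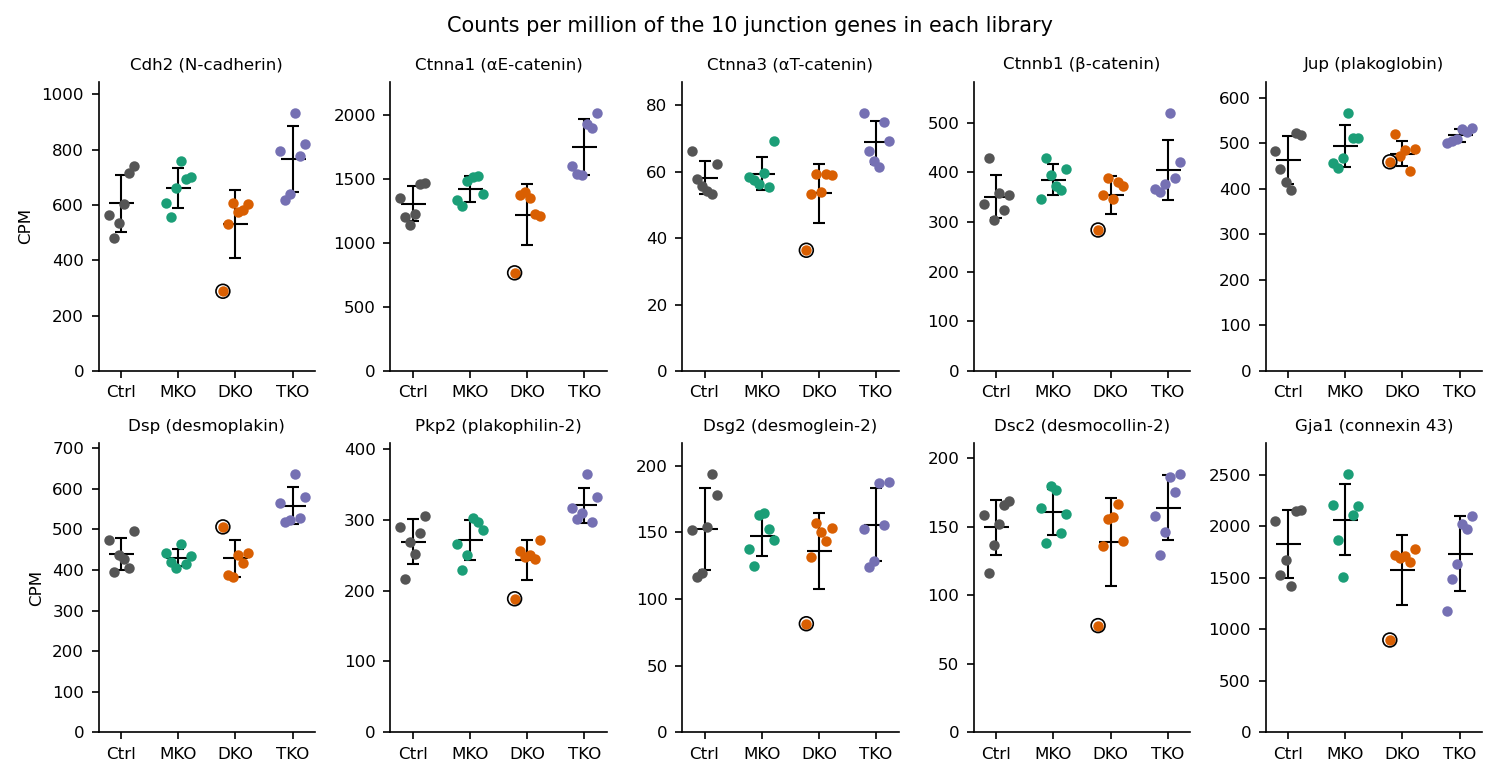
CPM of each member in every library, 1 point per library, with the group mean and SD as black bars and DKO 1 ringed. The TKO points of Dsp and Ctnna1 lie above all points of the other groups, and the ringed library is the lowest of DKO for 8 members.

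Whether the Myocd guide virus, set against AAV-Cre, acted differently in the 2 genotypes was tested as an interaction. Its value is the log2 ratio of TKO to DKO less that of MKO to Ctrl. With edgeR 0 of 10 members were called, where 0.464% of all tested genes were. An unadjusted p under 0.05 was found for 4 members (Ctnna1, Ctnna3, Dsp and Pkp2) and for 1520 of all 12281 tested genes. Dsp came nearest with 0.41 ± 0.11 (adjusted p = 0.108), and 9 of 10 values were above 0, with a median of 0.28. DESeq2 and limma voom each called 1 member, Dsp (adjusted p = 0.021 and 0.00832), where they called 1.56% and 6.2% of all tested genes, and so did edgeR without DKO 1 (0.0139) and without DKO 1 and Ctrl 3 (0.0221). In those 2 edgeR fits 1.63% and 1.05% of all tested genes were called. Without Ctrl 2 edgeR called 2, Dsp (0.0283) and Pkp2 (0.0479), where it called 4.74% of all tested genes. With 24 libraries a different response in the 2 genotypes was thus called for Dsp by DESeq2, limma voom and edgeR with a replicate block (0.0376). It was not called by edgeR without the block. With the block edgeR called 1.42% of all tested genes.

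Ratios of 2 members within a library need no scaling between libraries, and 4 were compared by two-sided exact permutation tests over the 6 pairs of groups, 24 tests in all. None passed an adjusted p of 0.05. A lone comparison could not have passed, since the smallest exact p possible, 0.00216, adjusts to 0.052 over the 24 tests. The ratio of Gja1 to Cdh2, connexin against cadherin, had a median of 3.71 in TKO (2.21 to 3.83), 4.45 in DKO (4.16 to 4.85), 4.58 in Ctrl (3.52 to 5.46) and 4.83 in MKO (3.41 to 5.44). TKO and DKO did not overlap, and 1 TKO library, TKO 1, lay far below the other 5. The difference was -0.41 on the log2 scale against DKO (exact p = 0.00216, the smallest that 6 against 6 can give, adjusted p = 0.052), -0.42 against Ctrl and -0.46 against MKO (both exact p = 0.0108, adjusted p = 0.0866). Without TKO 1 these differences were -0.29, -0.30 and -0.34. Ratios of Ctnna3 to Ctnna1, of Jup to Ctnnb1 and of Dsg2 to Dsc2 differed between groups by at most 0.18 on the log2 scale (lowest exact p = 0.0952, adjusted p = 0.571). Per length, Ctnna3 stood at 0.0379 to 0.0433 of Ctnna1, Jup at 0.933 to 1.01 of Ctnnb1, and Dsg2 at 0.699 to 0.777 of Dsc2 (group medians).

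**Figure D5:**
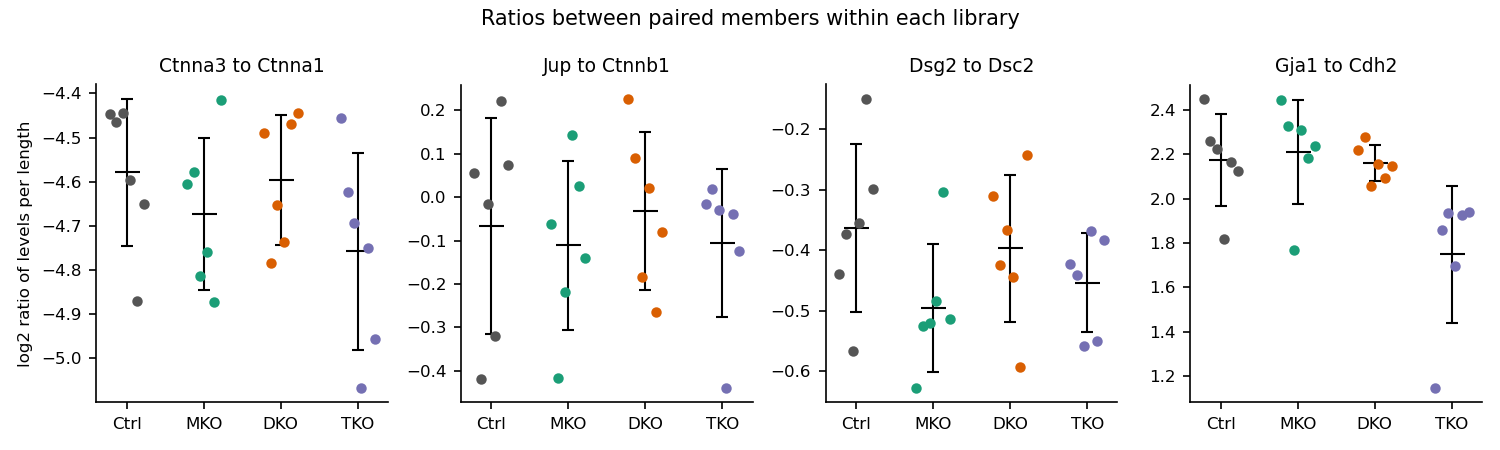
Log2 ratio of the per-length levels of 2 members in each library, for 4 pairs (panels) and 4 groups, 1 point per library, with the group mean and SD. Groups overlap in the first 3 panels, while for Gja1 to Cdh2 all 6 TKO points lie below all 6 DKO points.

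Other genes of the disc were taken from 4 lists with 75 genes in the table, 62 of them tested. These lists were chosen with earlier results of these data known, so the shares of all genes beside their counts are no test of the lists. In MKO against Ctrl 0 of 62 were called by edgeR, DESeq2 or limma voom. There 4 had an unadjusted p under 0.05 (3 higher and 1 lower), beside 762 of all 12281 tested genes. In DKO against Ctrl edgeR called 0 of 62, DESeq2 2 (both lower) and limma voom 5 (2 higher and 3 lower). An unadjusted p under 0.05 was found for 12 of the 62 and for 1285 of all 12281 tested genes. There edgeR, DESeq2 and limma voom called 0.635%, 1.36% and 2.55% of all tested genes. In TKO against Ctrl 12 were higher and 3 lower by edgeR, where 8.14% and 5.98% of all tested genes were, with a median log2 ratio of 0.09. DESeq2 called 13 higher and 5 lower and limma voom 15 and 8. At an unadjusted p under 0.05, 17 were higher and 9 lower, beside 3319 of all 12281 tested genes in either direction. DESeq2 and limma voom called 17.3% and 21.5% of all tested genes in that comparison. Among the desmosome and intermediate filament genes (8 tested) Synm, an intermediate filament protein (1.85 ± 0.26, adjusted p = 2.19e-05), and Tmem43, a membrane protein of inherited arrhythmogenic disease (0.74 ± 0.09, adjusted p = 4.76e-06), were higher, and no other was called by edgeR. Of 20 adherens and actin-linking genes 3 were higher, among them Zyx (zyxin, 0.97 ± 0.15) and Lmo7 (0.57 ± 0.12), and 2 lower, Vasp (-0.69 ± 0.15) and Fermt2 (-0.24 ± 0.07). Of 19 gap junction and channel genes 3 were higher, Panx1 (1.63 ± 0.30), Ank3 (ankyrin-G, 0.52 ± 0.12) and Gja5 (connexin 40, 1.39 ± 0.44), the last a connexin of the atria and conduction system. Of 15 scaffold genes 4 were higher, Sorbs2 (0.92 ± 0.14), Itga5 (0.57 ± 0.10), Nrap (0.52 ± 0.11) and Xirp2 (0.73 ± 0.17), and 1 lower.

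Against DKO 12 of the 62 were higher and 0 lower by edgeR (median 0.19), where 4.16% and 2.22% of all tested genes were. Of the 62, 24 were higher and 2 lower at an unadjusted p under 0.05, beside 2882 of all 12281 tested genes in either direction. DESeq2 called 12 higher and 0 lower, and limma voom 14 and 2. Those 2 tools called 9.6% and 12.7% of all tested genes in either direction. Against MKO 11 were higher and 4 lower by edgeR (median 0.09), where 6.48% and 6.86% of all tested genes were. DESeq2 called 12 higher and 7 lower and limma voom 16 and 13, beside 16.9% and 26.1% of all tested genes in either direction. An unadjusted p under 0.05 was found for 16 higher and 11 lower, beside 3422 of all 12281 tested genes in either direction. Sorbs2, Itga5, Nrap, Xirp2, Zyx, Lmo7, Tmem43, Synm and Ank3 were higher in TKO against each of the other groups, as Dsp was. Cxadr, the coxsackievirus and adenovirus receptor of the disc, was higher against DKO (0.64 ± 0.17, adjusted p = 0.0215). In the interaction Itga5 (0.68 ± 0.14, adjusted p = 0.0346) and Sorbs2 (0.86 ± 0.19, adjusted p = 0.0418) were called, 2 of 62, where 0.464% of all tested genes were. Against Ctrl the rises of the 2 called core members, 0.42 for Ctnna1 and 0.35 for Dsp, were smaller than those of Synm, Panx1 or Zyx.

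Markers of cell types moved beside these values. In TKO against Ctrl 5 of 12 myocyte markers were lower and none higher, in TKO against DKO 2 were higher and 2 lower, and in TKO against MKO 1 was lower. Their summed level was 111600 to 138690 CPM in TKO against 142470 to 178660 in Ctrl. Of 42 tested markers of other cell types 2 were higher (Cspg4 and Krt8) and 0 lower in TKO against Ctrl. DESeq2 and limma voom each called 1 lower. At an unadjusted p under 0.05, 3 were higher and 3 lower, beside 3319 of all 12281 tested genes in either direction. In TKO against DKO 1 was higher (Cspg4) and 0 lower by edgeR, with 1 lower by DESeq2 and 12 lower by limma voom. There 3 were higher and 7 lower at an unadjusted p under 0.05, beside 2882 of all tested genes in either direction. Among all tested genes DESeq2 called 463 of 12279 lower there and limma voom 704 of 12281. In the interaction edgeR called 0 of the 42, DESeq2 2 lower and limma voom 18 lower. At an unadjusted p under 0.05 the interaction had 1 higher and 23 lower, beside 1520 of all tested genes in either direction. DESeq2 called 71 of all 12279 tested genes lower in it and limma voom 559 of 12281. In TKO against MKO 14 of the 42 were lower, including 6 of 10 endothelial and 6 of 8 pericyte and smooth muscle markers, and 2 higher. In MKO against Ctrl edgeR, DESeq2 and limma voom each called 0 of the 42. There 12 were higher and 1 lower at an unadjusted p under 0.05, beside 762 of all tested genes. Median log2 ratios there were 0.79 (fibroblast), 0.52 (endothelial), 0.68 (pericyte and smooth muscle), 1.06 (leukocyte), 0.37 (epicardium) and -0.50 (Schwann cell, 1 gene tested). The MKO libraries enter both TKO against MKO and the interaction. By edgeR 5.98%, 2.22% and 6.86% of all tested genes were lower in TKO against Ctrl, DKO and MKO. Those higher made up 8.14%, 4.16% and 6.48%. The endothelial sum was 116 to 415 CPM in TKO, 161 to 643 in DKO, 474 to 994 in MKO and 115 to 1202 in Ctrl, and the fibroblast sum 255 to 329, 85.7 to 705, 370.4 to 1117 and 118 to 669. Gja1, Ctnna1, Ctnnb1 and Cdh2 are also expressed by such cells, and the part of these shifts in the members' values was not tested. In these bulk samples fewer cells of a type and less RNA per cell cannot be told apart.

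In the authors' deposited table for TKO against Ctrl, Ctnna1 (log2 fold change 0.37, adjusted p = 0.00558) and Dsp (0.33, adjusted p = 0.00371) passed 0.05. In the authors' deposited table for TKO against DKO, Cdh2 (0.41), Ctnna1 (0.42), Ctnna3 (0.28), Dsp (0.44) and Pkp2 (0.34) did. The authors' deposited table for TKO against the Myocd group has Ctnna1 (0.31), Dsp (0.38) and Pkp2 (0.24) past 0.05.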

How the data were processed

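Polyadenylated RNA of 24 cardiomyocyte libraries, sorted after Langendorff digestion, was read with SMART-Seq v4 and Nextera XT kits, per the labels' protocols. Strand is not marked by these kits, and reads of overlapping or antisense genes are not separable. The authors deposited whole-number read counts per gene, and 6 tables of log2 fold changes and p-values. The submitters' processing notes name STAR, featureCounts, DESeq2 and mm10, with no versions.

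The members and gene lists were chosen with earlier results of these data known. The test was edgeR 4.0.16 under R 4.3.3 (quasi-likelihood, two-sided, TMM scaling, filterByExpr minimum count 10, 1 coefficient per group), adjusted by Benjamini-Hochberg over 12281 genes and called under 0.05. All adjusted p-values for genes come from this fit unless another is named. From each list up to 4 called genes with the smallest adjusted p were named per comparison, not all of which are printed. TPM used the table's exon lengths. Alternatives were RLE or total-count scaling, filters, DESeq2 1.42.0, limma 3.58.1 voom with quality weights, sex, a replicate block, fewer groups and each library left out. The method was also run on simulated counts built from the means and spread of the fit to these data, with results not given here. Replicates were checked for repeated deposits: over 60 pairs the chi-square per gene was 6.63 to 107.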

Additional observations from a re-analysis of the deposited data

Results flagged for a closer look

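Values were flagged where the highest or lowest of the 6 libraries of a group stood apart from the others by Dixon's criterion. Of 56 groups of values 11 were flagged, where chance flags about 1 in 20 groups, and 7 of the 11 are the library DKO 1, the shallowest of all. In DKO 1 Cdh2 lay at 288 CPM (the other 5 at 533 to 609), Ctnna1 at 765 (1207 to 1396), Ctnna3 at 36.4 (53.2 to 59.3) and Pkp2 at 188 (244 to 271). In the same library Dsg2 lay at 81.5 CPM (131 to 157), Dsc2 at 77.9 (136 to 167) and Gja1 at 898 (1655 to 1784). Limma voom gave DKO 1 a weight of 0.0877.

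The other 4 were spread over 3 libraries. Ctnna3 was at 69.2 CPM in MKO 6, above 55.5 to 59.7 in the other MKO libraries. Ctnnb1 was at 521 CPM in TKO 4, above 360.3 to 420.5 in the others, and the log2 ratio of Jup to Ctnnb1 in that library was -0.44, below -0.12 to 0.02. The log2 ratio of Gja1 to Cdh2 was 1.15 in TKO 1, below 1.7 to 1.94 in the other TKO libraries.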

How the results depend on the processing

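Of 2380 recomputed log2 ratios of members 2338 kept their side of the threshold, 15 lost a call, 27 gained one and no called value changed sign. Members called in TKO against Ctrl numbered 2, and 3 with DESeq2 or limma voom, 4 with 22 libraries (without DKO 1 and Ctrl 3) and 5 with total-count scaling, a setting added after seeing the data. In TKO against MKO they numbered 1, and 4 with 22 libraries, 3 with limma voom, 2 with DESeq2 and 2 with only both groups. In TKO against DKO they numbered 5, and 0 with only both groups. In the interaction they numbered 0, and 1 (Dsp) with 22 libraries, DESeq2, limma voom and the replicate block. Leaving out 1 library at a time gave 2 to 5 members in TKO against Ctrl, 1 to 4 against MKO, 3 to 5 against DKO and 0 to 2 in the interaction; the highest against Ctrl and MKO came without DKO 1, the lowest against DKO without DKO 2, TKO 1, TKO 5 or TKO 6. Ratio tests past the threshold numbered 0, and 0 to 2 with 1 library left out (2 without Ctrl 4 or without MKO 3, all Gja1 to Cdh2). Without DKO 1 the number of called genes rose from 1734 to 2808 in TKO against Ctrl. The causes of these shifts were not tested.

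The replicate block took the replicate number of the titles as a pair. Deviations of same-numbered libraries had correlations of -0.218 to 0.642 over 36 pairs (median 0.0722, 14 over 0.1), against -0.496 to 0.445 over 180 other-numbered pairs (median -0.0236, 45 over 0.1). Not every same-numbered pair was over 0.1, and 6 of 24 libraries correlated best with their own number, so the numbers were taken as names. Under the block Dsp passed in the interaction (adjusted p = 0.0376), and no other call on a member changed.

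Limits: the scarcest member, Ctnna3, was at 36.4 CPM or more in every library. Sex was uneven (male libraries per 6: Ctrl 4, MKO 4, DKO 1, TKO 3), and with it as a covariate no count of called members changed. Reads with several matches were counted in a way not given in the sources used here.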
